A study of Mus musculus with 69 samples.

Results

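The genes described here encode 10 subunits of BAF, the SWI/SNF-type chromatin remodelling complex of mammals, in the composition found in embryonic stem cells (ESCs), known as esBAF. They are Smarca4, Smarcc1, Smarcb1, Smarcd1, Smarcd2, Smarce1, Arid1a, Arid1b, Actl6a and Dpf2, chosen by symbol as the listed subunits among the 16263 genes of the count table. All 10 were in the table and all 10 were among the 14061 genes with enough reads to test. The cells were J1 mouse ESCs of the 129S4/SvJae background, which derive from the inner cell mass of a blastocyst. Wild-type (WT) J1 cells were set against the H3.3K27R lines Mut18 and Mut43, in which the alleles of both genes for histone H3.3, H3f3a and H3f3b, had been edited with CRISPR-Cas9 so that lysine 27 of H3.3 became arginine. Each mutant line is 1 clone. mRNA-seq and ATAC-seq, which maps open chromatin, were each done in 2 libraries per line, and all lines were grown on feeder cells and then passaged without feeders before harvest. The study removed this acetylation site to learn whether enhancers and transcription depend on it, and the question put here is how the mRNAs of the remodeller subunits stood in the mutant lines.

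BAF uses the energy of ATP to slide or evict nucleosomes, and in ESCs it keeps regulatory elements open for the pluripotency factors. The ATPase Smarca4 (BRG1) sits on a core built from Smarcc, Smarcd, Smarcb1 and Smarce1 proteins. Arid1a or Arid1b, together with Dpf2, define the canonical BAF assembly, while related assemblies, PBAF and a non-canonical form, carry other subunits in their place. Many of these positions can be filled by either of several paralogues, and the choice among them differs between cell types.

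Promoter sequences were found in RefSeq (GRCm38.p6) for 9 of the 10 genes, with Smarce1 left out. The windows run from 250 bases before to 50 bases after an annotated start. The parts shown, 5′ to 3′, are those before the start and before any longer stretch of untranslated region, for the pair of genes that fell most, for the gene that rose most and for a pair that did not pass the test. Capitals mark matches on either strand to short motifs of common promoter factors, which are spelled out with their frequencies among all promoters.
Arid1b, chr17:4994824-4995073, strand +: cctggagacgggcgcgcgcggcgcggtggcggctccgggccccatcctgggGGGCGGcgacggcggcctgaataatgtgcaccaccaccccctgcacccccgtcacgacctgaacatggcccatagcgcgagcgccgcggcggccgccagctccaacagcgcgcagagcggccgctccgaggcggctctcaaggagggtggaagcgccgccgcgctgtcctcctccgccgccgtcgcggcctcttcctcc
Arid1a, chr4:133756770-133757019, strand -: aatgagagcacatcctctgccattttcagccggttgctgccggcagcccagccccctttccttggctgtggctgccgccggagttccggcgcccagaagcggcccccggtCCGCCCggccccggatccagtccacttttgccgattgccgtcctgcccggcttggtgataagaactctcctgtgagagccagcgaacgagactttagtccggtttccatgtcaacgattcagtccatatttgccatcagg
Smarcd2, chr11:106267800-106267882, strand -: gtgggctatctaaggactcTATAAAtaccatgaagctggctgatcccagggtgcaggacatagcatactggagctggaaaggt
Smarca4, chr9:21615919-21616168, strand +: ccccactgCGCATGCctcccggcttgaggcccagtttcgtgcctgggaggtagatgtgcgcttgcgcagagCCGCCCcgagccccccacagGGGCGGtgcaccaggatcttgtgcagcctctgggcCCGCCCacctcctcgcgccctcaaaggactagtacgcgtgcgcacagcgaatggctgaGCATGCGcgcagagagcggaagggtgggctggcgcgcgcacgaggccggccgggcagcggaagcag
Smarcc1, chr9:110131774-110131979, strand +: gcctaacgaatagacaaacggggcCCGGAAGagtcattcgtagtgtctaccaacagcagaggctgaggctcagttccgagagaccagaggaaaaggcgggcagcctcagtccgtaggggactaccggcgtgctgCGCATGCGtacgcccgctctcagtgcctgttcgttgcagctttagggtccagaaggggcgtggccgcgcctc
The Arid1b stretch holds 135 coding-exon bases and 115 intronic bases of the GENCODE models. Its whole window had 75.3% G and C and 42 CpG dinucleotides. Smarcd2 was lowest of the 9 genes with 55.0% and 4 CpG, beside medians of 60.0% and 19 over the 15282 RefSeq windows of genes in the table. A second Arid1a window, ahead of a start inside the gene and not shown, had 79.7% and 36 CpG. A peak overlapped it in 1 library. The Smarcd2 stretch lies in an intron, ahead of a start inside the gene, and no ATAC-seq library had a peak on it. The Arid1a and Smarca4 stretches lie outside the annotated gene, next to its first base, and that of Smarcc1 is intronic, ahead of an internal start. All 4 stretches other than that of Smarcd2 were overlapped by a peak in all 6 libraries.

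The letters GGGCGG, the core of the motif of Sp1-type factors, occurred in the windows of 8 of the 9 genes, and in 59.0% of all 15282 windows. The letters GCATGCG, part of the palindrome bound by NRF1, occurred in those of Smarca4, Smarcc1 and Smarcb1, and in 5.72% of all windows. In Smarcc1 the matches on both strands overlap, and in Smarcb1 they lie within the 50 bases after the start, which are not shown. A TATAAA was present only in the Smarcd2 window among the 9 genes, and in 7.81% of all. CCGGAAG was found in Smarcc1 alone (14.8% of all windows), AAGATGG in Smarcd1 alone (6.49%) and CCAAT in Dpf2 alone (37.4%). Neither CACGTG (9.44% of all) nor ATGCAAAT (1.34%), the octamer, matched any of them. These matches describe the letters only.

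The 6 mRNA-seq libraries held 14992756 to 15143998 counted reads. Because the edit changes a codon and leaves the mRNA in place, gene counts cannot show it. H3f3a was lower in the mutants, with a log2 fold change of -0.23. H3f3b, on chromosome 11, gave 0.03 over both clones. In edgeR's quasi-likelihood test H3f3b gave -0.07 in Mut18 (adjusted p = 0.21) and 0.12 in Mut43 (adjusted p = 0.0162). Its direct difference between the clones was 0.19, higher in Mut43 (adjusted p = 0.0402). ESC markers were abundant throughout, with a summed level of 10 markers of 3980 to 4130 CPM (counts scaled to an equal library total) in WT and 4470 to 4700 in the mutants, and 8 of the 10 were higher and 2 lower in the mutants. Fibroblast markers, which feeder cells would carry, summed to 214 to 300 CPM in WT and 136 to 181 CPM in the mutants, and 7 of 9 tested were lower, with Lum listed at 0 in 3 of the 6 libraries. Primitive endoderm markers summed to 23.0 to 26.8 CPM in WT and 14.4 to 17.6 CPM in the mutants, with 1 higher and 1 lower of 5 tested, and neural markers to 124 to 125 CPM and 155 to 165 CPM, with 2 higher and 3 lower of 5. In bulk RNA, a change in the share of a cell type and a change in the RNA per cell cannot be told apart. The part of these markers in the results below was not tested.

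Between WT and the mutants, 3 of the 10 subunit mRNAs were lower (Arid1b, Arid1a and Smarcd1), 3 were higher (Smarcd2, Smarce1 and Actl6a) and 4 did not pass the test (Smarca4, Smarcc1, Smarcb1 and Dpf2). The test was edgeR's quasi-likelihood test at an adjusted p under 0.05, over all 14061 genes. Over all of these, 23.5% were called higher and 24.5% lower, so that calls were common. None of the 10 passed the additional 2-fold threshold, which 8.93% of all tested genes did. The median log2 fold change of the 10 was 0.03, beside -0.004 for all tested genes.

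**Figure D1:**
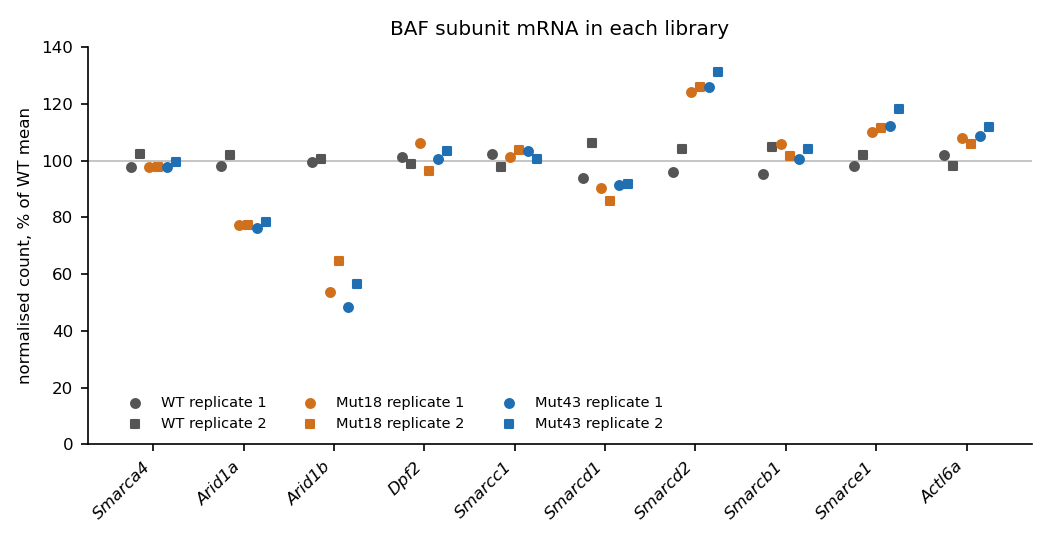
Normalised count of each BAF subunit gene in the 6 mRNA-seq libraries, as a percentage of the mean of the WT libraries (vertical axis), with 1 point per library, circles for replicate 1 and squares for replicate 2. The mutant points of Arid1a and Arid1b lie below and those of Smarcd2 above both WT points, and those of Smarca4 lie on the WT level.

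The ARID subunits, large DNA-binding proteins that mark the canonical complex, were both lower in the mutants. The WT libraries held 626 and 632 normalised counts of Arid1b, whereas Mut18 held 337 and 407 and Mut43 held 305 and 355. Every mutant library was thus below both WT libraries, which lay close together. The change was -0.84 on the log2 scale, with a standard error of 0.084 (adjusted p = 6.05e-08). Its level fell by 44.2%, with a 95% confidence interval of 0.495 to 0.630 for the ratio. Arid1a, the more abundant of the pair, had 7282 and 7583 normalised counts in WT. In the mutants it had 5731 and 5744 (Mut18) and 5662 and 5832 (Mut43), again with no overlap and with little spread among the 4. On the log2 scale this was -0.37, with a standard error of 0.037 (adjusted p = 4.98e-08), or a mutant to WT ratio of 0.773.

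Smarcd1, Smarcd2 and Smarcd3 encode alternative versions of one core position, BAF60, which links the complex to transcription factors. Smarcd2 rose from 877 and 954 normalised counts in the WT libraries to 1137 and 1152 in those of Mut18 and 1151 and 1199 in those of Mut43. All mutant libraries exceeded both WT libraries, with a rise of 26.7%, or 0.34 on the log2 scale, and a standard error of 0.050 (adjusted p = 1.14e-05). Smarcd1, the main form, stood at 3082 and 3496 normalised counts in the WT libraries, where Mut18 gave 2974 and 2816 and Mut43 gave 3010 and 3012. The mutant libraries were lower, but the lower WT library was close to them. The estimate of -0.16 on the log2 scale, with a standard error of 0.048 (adjusted p = 0.0109), shrank to -0.06 (adjusted p = 0.470) when WT replicate 2 was left out, so that this call rests on that library.

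Smarce1 encodes BAF57, a core subunit with an HMG box. Normalised counts of 3067 and 3190 were found in the WT libraries, of 3441 and 3491 for Mut18 and of 3504 and 3698 for Mut43. The groups did not overlap, and the rise on the log2 scale was 0.18, with a standard error of 0.042 (adjusted p = 0.00169). Actl6a encodes BAF53a, the actin-related subunit of dividing cells. The WT libraries gave 3433 and 3298 normalised counts, Mut18 gave 3635 and 3562, and Mut43 gave 3658 and 3765. These did not overlap either, though the gap was narrow. The difference of 0.12 on the log2 scale, with a standard error of 0.040 (adjusted p = 0.0192), was no longer called without WT replicate 2 (0.10, adjusted p = 0.168) or when libraries were scaled by their totals only (0.08, adjusted p = 0.0971). Of all tested genes, 29.4% had every mutant library above both WT libraries and 30.4% had every one below, beside 3 and 3 of the 10 subunits.

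The ATPase, the core subunits Smarcc1 and Smarcb1, and Dpf2 did not pass the test. Smarca4 had 4622 and 4824 normalised counts in WT and 4616, 4614, 4610 and 4691 in the mutants, so that 3 mutant libraries lay just below and 1 between the WT values. The interval of its log2 change, -0.03, ran from -0.11 to 0.05 (adjusted p = 0.569). Smarcc1, which encodes the scaffold BAF155, had 6181 and 5919 in WT and 6115, 6265, 6258 and 6076 in the mutants. The values overlapped, and that of Smarcc1, around 0.03, ran from -0.05 to 0.11 (adjusted p = 0.530). Smarcb1, also known as SNF5 and a tumour suppressor, had 1263 and 1389 normalised counts in WT, which enclosed 3 of its 4 mutant values of 1404, 1348, 1334 and 1381. For Smarcb1 the estimate was 0.04 and its bounds were -0.06 and 0.14 (adjusted p = 0.474). Dpf2, a PHD-finger subunit that binds modified histone tails, gave 1471 and 1440 in WT and 1548, 1404, 1463 and 1505 in the mutants, and an interval of -0.07 to 0.12 around 0.02 (adjusted p = 0.695). All 4 intervals thus lay between -0.11 and 0.14 on the log2 scale.

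Reads could be shared between some of these genes and their neighbours, because the sources do not say whether strand was used in counting. Exons of Smarcc1 overlap those of Dhx30 on the other strand, exons of Actl6a those of Mrpl47, exons of Smarcd1 those of Gm17349 and Gm34939, and exons of Dpf2 those of Gm42067. Gm27373 lies on the same strand within an exon of Smarca4. No exon overlap was annotated for Arid1a, Arid1b, Smarcd2, Smarce1 or Smarcb1.

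To see whether the clones differed, each was compared with the same WT libraries in a fit with 3 groups. In Mut18, 2 of the 10 genes were called higher and 3 lower, beside 20.3% and 21.0% of all tested genes. In Mut43, 3 were called higher and 3 lower, beside 22.9% and 23.9%. Actl6a was called in Mut43, at 0.14 (adjusted p = 0.0108), and not in Mut18, at 0.10 (adjusted p = 0.0848). The Mut43 call was lost without WT replicate 2 (adjusted p = 0.0862) or Mut43 replicate 2 (0.0895). Arid1b gave -0.76 in Mut18 (standard error 0.091) and -0.93 in Mut43 (standard error 0.093), and Arid1a gave -0.37 in each. For Smarcd2 the values were 0.32 and 0.36, for Smarce1 0.15 and 0.20, and for Smarcd1 -0.18 and -0.13. The Smarcd1 call in Mut43 was marginal (adjusted p = 0.0452). It was lost under DESeq2 (adjusted p = 0.157), with RLE scaling (0.0503) and with no expression filter (0.0916). Of the alternatives, only the fit without WT replicate 1 kept it, and without WT replicate 2 its estimate was -0.03. In Mut18 the Smarce1 call was lost without WT replicate 1 (adjusted p = 0.102) or Mut18 replicate 2 (0.0624), and the Smarcd1 call without WT replicate 2 (0.268) or Mut18 replicate 2 (0.137).

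**Figure D2:**
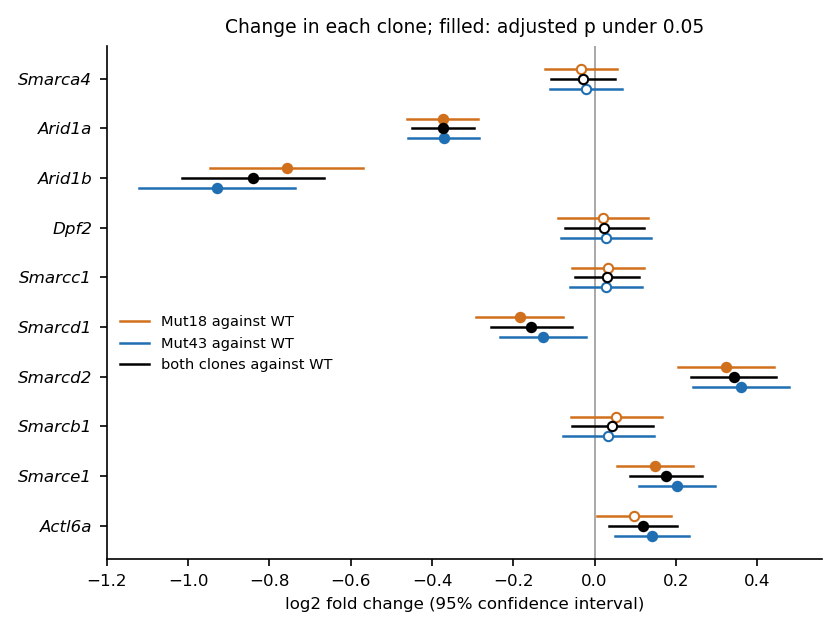
Log2 fold change of each subunit gene (horizontal axis) with its 95% confidence interval, for Mut18 (orange), Mut43 (blue) and both clones together (black) against the same WT libraries. Filled points have an adjusted p under 0.05, and the intervals of the clones overlap for every gene.

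Tested directly against each other, the clones gave 0 calls among the 10 genes by edgeR, 0 at an unadjusted p under 0.05 and 0 by DESeq2. Among all tested genes 0.327% were called. The widest difference was that of Arid1b, lower in Mut43 by a log2 value of -0.17, with an interval of -0.37 to 0.03 (adjusted p = 0.672). For Arid1a the interval of the difference was -0.09 to 0.09, and for Smarcd2 it was -0.08 to 0.15.

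Smarcd2 and Smarce1 both lie on chromosome 11, where most genes were higher in the mutants. The 1184 tested genes of that chromosome had a median log2 fold change of 0.39 (quartiles 0.17 and 0.55) and 67.1% were called higher, while the 12236 genes of the other autosomes had a median of -0.02 and 19.7% were called higher. The share of ATAC-seq peaks on chromosome 11 moved the same way, from 7.17% and 7.19% in WT to between 8.29% and 8.34% in the 4 mutant libraries. Against this chromosome-wide level, Smarcd2 was 0.04 below the median, with 43.8% of chromosome 11 genes below it, and Smarce1 was 0.21 below, with 25.5% below it. For Smarcd2 the gap to the median was smaller than the standard error of its change.

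**Figure D3:**
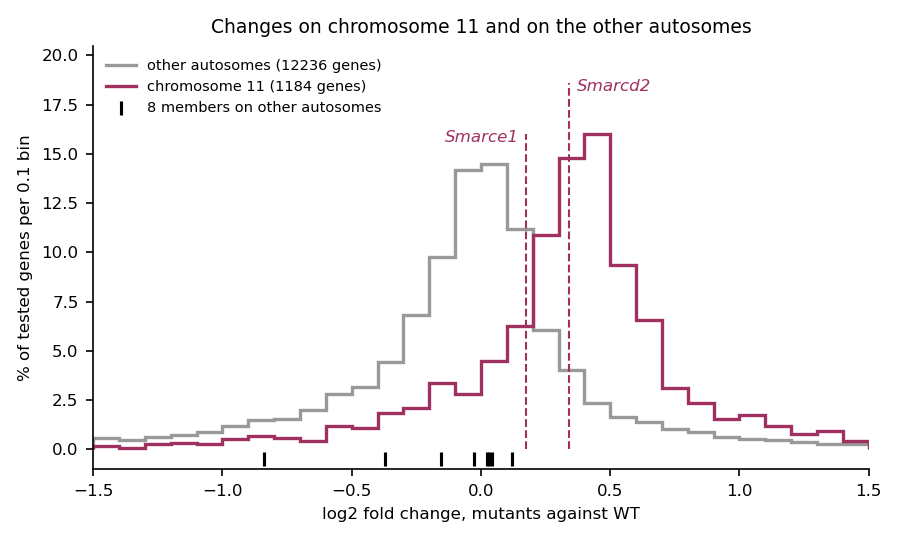
Distribution of log2 fold changes between mutants and WT (horizontal axis, bins of 0.1) as a percentage of the tested genes of chromosome 11 (red) and of the other autosomes (grey). Dashed lines mark Smarce1 and Smarcd2 and ticks the 8 other subunit genes. The chromosome 11 curve is shifted to the right, and both dashed lines lie left of its median of 0.39.

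Scaling factors taken from chromosome 11 genes alone lower every gene by about the same amount, 0.38 at the median of all genes, and so set the values of these genes relative to their chromosome. Smarcd2 was then at -0.04 on the log2 scale, with bounds of -0.15 and 0.07 (adjusted p = 0.477), and Smarce1 at -0.21, with bounds of -0.29 and -0.12 (adjusted p = 0.000127). Scaling on genes outside chromosome 11 left the calls of all 10 genes as they were. Relative to chromosome 11, Smarce1 was thus lower, with 25.5% of the genes of the chromosome below it, and Smarcd2 was not called. The share of genes called lower under this scaling is not given here. Both estimates have the opposite sign to those over all genes, but the bounds of Smarcd2 lie on both sides of no change. The part of the chromosome in their rise was not tested. The 8 subunits on other chromosomes had a median log2 fold change of -0.002.

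Surroundings and length were also examined for the genes that fell, in comparisons chosen after the values had been seen. Within 500 kb of Arid1b, 3 other genes were tested, of which 2 were lower (Tmem242 at -0.42) and 1, Ldhal6b, was higher at 1.06. Around Arid1a 4 of 27 were lower and 7 higher, with a median of 0.15, and around Smarcd1 1 of 20 was lower and 6 higher. By contrast, 16 of the 20 neighbours of Smarcd2 and 10 of the 16 of Smarce1 were higher. Arid1a and Arid1b have long mRNAs, with exons that cover 11476 and 12600 bases. Among the 1324 tested genes with over 10 kb of exon, 34.2% were lower, beside 24.5% of all genes with a length. Their median was -0.07, and 23.7% of them lay below Arid1a and 11.2% below Arid1b. What part length has in the change was not tested further.

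In CPM per kilobase of exon, the 10 subunits spanned a wide range in WT. Actl6a stood highest at 57.5 ± 1.6 (mean ± SD of 2 libraries), followed by Smarcd1 at 54.3 ± 4.8, Smarcc1 at 51.3 ± 1.6, Smarca4 at 48.4 ± 1.5 and Arid1a at 43.0 ± 1.2. Below these came Smarce1 at 31.2 ± 0.87, Smarcd2 at 16.9 ± 1.0, Dpf2 at 14.9 ± 0.23, Smarcb1 at 11.1 ± 0.74 and, well apart, Arid1b at 3.32 ± 0.024. The libraries of Actl6a and Smarcd1 overlapped, as did those of Smarcd1 and Smarcc1, and the other neighbours in this order were separated. In the mutants, Smarcc1 (52.4 ± 0.82 over 4 libraries) ranked above Smarcd1 (48.7 ± 1.5), and Smarce1 (35.3 ± 1.1) above Arid1a (33.2 ± 0.40), and Arid1b remained last at 1.85 ± 0.22. The order depends on the length assigned to a gene. With the longest transcript in place of all exons, 4 of the 10 genes kept their rank.

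Because the complex chooses among paralogues, the share of each subunit in the level per kilobase of its family was computed in every library. Arid1a made up 92.7% and 92.9% of the Arid1a and Arid1b total in WT, and 94.9%, 93.9%, 95.3% and 94.7% in the mutants. The share of Arid1b was thus lower in every mutant library, although both genes fell. Smarcd1 held 74.9% and 75.8% of the Smarcd family in WT and 69.3%, 67.7%, 69.3% and 68.2% in the mutants. Smarcd2 held 23.9% and 23.2% in WT and 29.7% to 31.1% in the mutants, and Smarcd3 made up the small remainder. Smarcd2 lies on chromosome 11, whose tested genes had a median log2 fold change of 0.39. The part of that chromosome in the Smarcd shares was not tested. Dpf2 held 86.1% and 86.0% of the Dpf1, Dpf2 and Dpf3 total in WT and 79.6% to 81.7% in the mutants, the difference being made up by Dpf1, a paralogue best known from neurons.

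**Figure D4:**
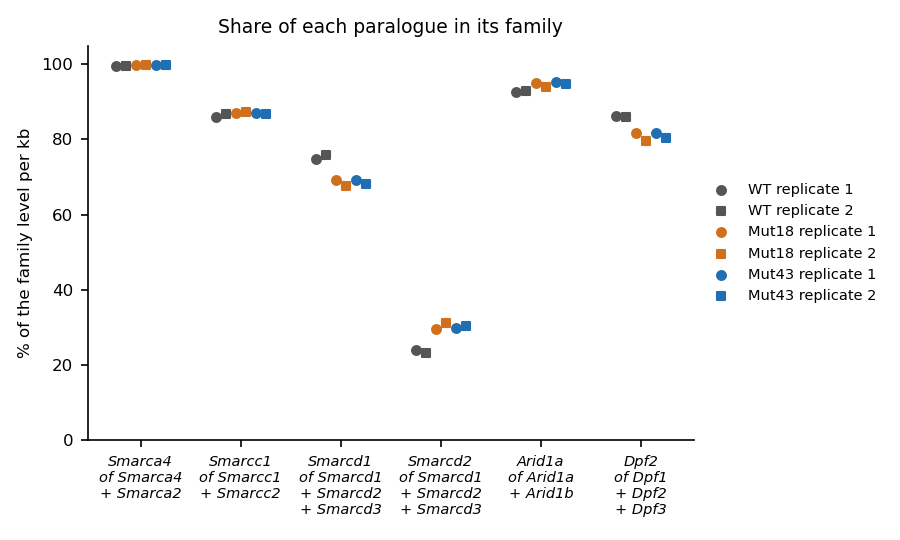
Share of each subunit in the summed level per kilobase of its paralogue family (vertical axis, percent), with 1 point per library. The mutant libraries lie below WT for Smarcd1 and Dpf2 and above it for Smarcd2 and Arid1a, and shares of Smarca4 stay near 100%.

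Smarca4 was nearly the sole ATPase, with 99.6% of the Smarca4 and Smarca2 total in both WT libraries and 99.7% to 99.8% in the mutants. Smarcc1 held 85.9% and 86.8% of the total with Smarcc2 in WT and 86.8% to 87.3% in the mutants, which overlapped. In the exact permutation test over libraries (two-sided, 15 regroupings) the 5 shares other than that of Smarcc1 gave p = 0.133, the smallest value this design allows, and 0.160 after adjustment over the 6 shares, so that none could reach 0.05. Smarcc1 gave p = 0.267 in the same exact test. No share was formed for Actl6a, since Actl6b was not analysed here.

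Further subunits of SWI/SNF complexes were taken from a list of 21 genes, of which 19 were tested. Of these, 5 were higher and 8 lower in the mutants, beside 23.5% and 24.5% of all tested genes. The median log2 fold change was -0.05. DESeq2 gave 5 higher and 6 lower. In Mut18, 3 were higher and 7 lower, beside 20.3% and 21.0% of all tested genes. In Mut43, 5 were higher and 8 lower, beside 22.9% and 23.9%. Among the paralogues of the members, Smarca2 (BRM), the alternative ATPase, was scarce, with 41.0 and 39.2 normalised counts in WT and 16.2 to 31.4 in the mutants. It was lower in all 4, with a log2 fold change of -0.81 (adjusted p = 0.0106). By clone, Smarca2 was called in Mut43 (-1.01, adjusted p = 0.0063) and not in Mut18 (-0.64, adjusted p = 0.0696). Dpf1 had 189 and 190 normalised counts in WT and 277, 290, 264 and 295 in the mutants, the largest rise of the list at 0.57 (adjusted p = 1.96e-05). Smarcc2 (-0.05, adjusted p = 0.516) and Smarcd3 (0.04, adjusted p = 0.884) were not called, and Dpf3, with at most 8.01 normalised counts in a library, was not tested.

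Among the subunits that mark other assemblies, Arid2, the ARID protein of PBAF, had 2020 and 1995 normalised counts in WT and 1360, 1399, 1408 and 1378 in the mutants. It was lower without overlap, at a log2 fold change of -0.53 (adjusted p = 1.58e-09). Its partner Pbrm1 gave -0.06 (adjusted p = 0.311), and the PBAF subunits Brd7 (0.19, adjusted p = 0.000849) and Phf10 (0.16, adjusted p = 0.0139) were higher. Of the non-canonical complex, Brd9 gave -0.31 (adjusted p = 0.000356) and Gltscr1 -0.33 (adjusted p = 0.00358), both lower, while its homologue Gltscr1l was higher at 0.16.

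The transcription factors that associate with BAF moved apart. Bcl11b had 76.2 and 68.6 normalised counts in WT and 30.0, 29.3, 25.4 and 26.4 in the mutants. Its log2 fold change of -1.38 (adjusted p = 4.17e-06) was the only one of the list past the 2-fold threshold. Bcl11a, on chromosome 11, was higher at 0.48 (adjusted p = 0.000137), close to the median of that chromosome. Actb (-0.16), Ss18 (-0.24) and Bcl7a (-0.27) were lower, and Bcl7b, Bcl7c and Ss18l1 were not called. Smarca2 and Bcl11b were low in the mutant libraries, in which 7 of the 9 tested fibroblast markers were also lower. Thy1 (0.02) and Twist2 (-0.35) were not called. The lower markers included Col3a1, with 843 and 257 normalised counts in WT and 98.4 to 149 in the mutants. The lower markers differed between the WT libraries to unlike degrees, widely for Col3a1 and less for Fbn1 (370 and 321 normalised counts). The part of other cells in the level of Smarca2 and Bcl11b was not tested.

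**Figure D5:**
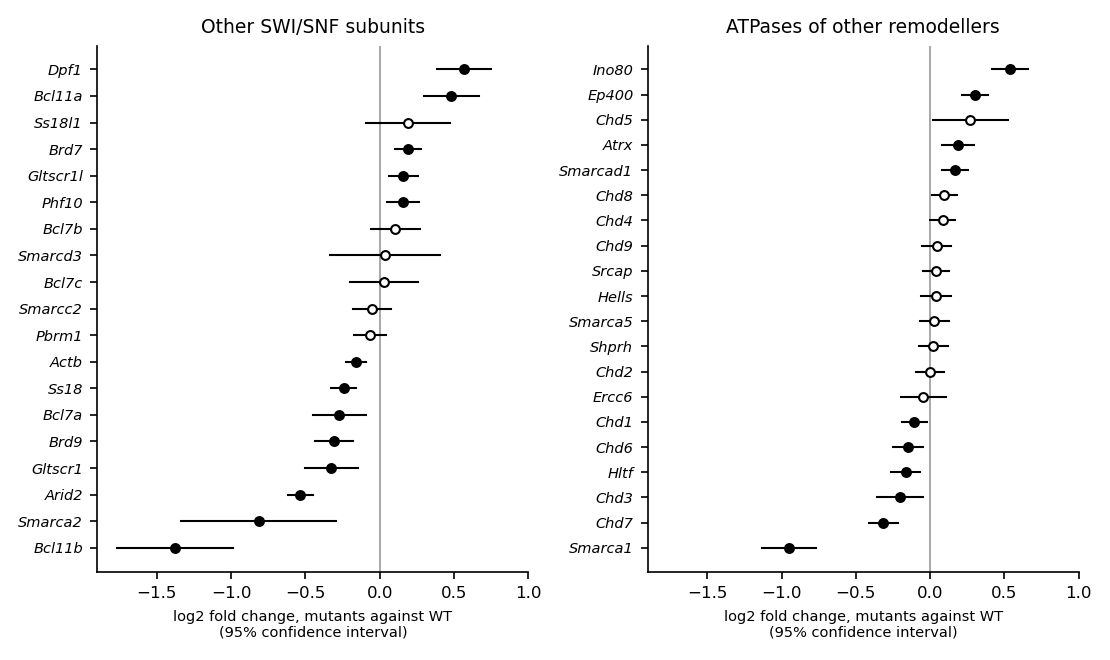
Log2 fold change between mutants and WT (horizontal axis) with 95% confidence intervals for other SWI/SNF subunits (left) and for the ATPases of other remodellers (right), in the order of their values. Filled points have an adjusted p under 0.05. Bcl11b lies lowest on the left at -1.38 and Smarca1 lowest on the right at -0.95.

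For comparison, 20 genes of other Snf2-type ATPases were all tested, with a median of 0.03. Of these, 4 were higher and 6 lower, beside 23.5% and 24.5% of all tested genes. Among the called genes, the largest rises were those of Ino80, the ATPase of the INO80 complex (0.54, adjusted p = 1.80e-07), Ep400 (0.30, adjusted p = 5.52e-06) and Atrx, which helps to deposit H3.3 at repeats (0.19, adjusted p = 0.00561). The largest falls among them were those of Smarca1, an ISWI ATPase (-0.95, adjusted p = 2.13e-08), Chd7 (-0.31, adjusted p = 1.71e-05) and Chd3 (-0.21, adjusted p = 0.0276). The libraries of Atrx overlapped, with 5415 normalised counts in Mut18 replicate 1 and 5513 in WT replicate 1. Chd3 lies on chromosome 11, where the median was 0.39. It was called in Mut43 (-0.26, adjusted p = 0.0161) and not in Mut18 (-0.16, adjusted p = 0.143). The count of 6 lower genes went to 3 under DESeq2 and to between 2 and 6 when single libraries were left out (2 without WT replicate 1, 3 without WT replicate 2 and 3 without Mut43 replicate 1). No difference between the lists was tested.

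At the chromatin level, all 10 subunit genes had an ATAC-seq peak within 500 bp of an annotated start in all 6 libraries, as did 85.2% of the tested protein-coding genes. When only peaks with a -log10 q of at least 20 were counted, 5 of the 10 kept one in every library. The median -log10 q of the lists was 19.5 to 22.3, and the share over all genes at this threshold is not given here. The lists held 63588 to 78536 peaks per library, so each peak was ranked by its q value within its own list. Since several of the genes have more than 1 start, 1 peak region per gene with a peak in all 6 libraries was followed, that of the highest mean percentile where a gene had several, a choice made after the data had been seen. The highest ranks were those of Actl6a, at the 87.6 and 92.2 percentiles of the WT lists and the 88.0 to 96.0 percentiles of the mutant lists. Smarcc1, at its upstream start, lay at 90.5 and 89.8 in WT and at 85.8 to 93.3 in the mutants, with overlap.

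The lowest ranks belonged to the ARID genes. The Arid1b region, chr17:4994890-4995438, lay at the 35.2 and 16.2 percentiles in WT and at 26.0, 26.6, 38.5 and 33.9 in the mutants. The mutant values fell between and above those of WT. The Arid1a region, chr4:133756600-133757140, lay at 37.4 and 21.2 in WT and at 54.0, 25.6, 26.9 and 17.3 in the mutants, which spread on both sides of WT. Ranks in lists of unequal length cannot show whether accessibility changed, and no test was made on them.

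Smarcd2 had its peak region at the upstream start of the gene (chr11:106272303-106273434), not at the internal start of the printed sequence. It lay at the 66.6 and 72.9 percentiles in WT and at 86.3, 83.5, 84.3 and 76.9 in the mutants, all above WT. In all, 2 of the 10 genes (Smarcd2 and Smarca4) had a percentile above both WT libraries in every mutant library, and 0 had one below in every one. Over all genes with such a region, the shares were 7.02% and 15.8%. The margin of Smarca4 was small, with 86.6 in the higher WT library against 86.9 in the lowest mutant library. For Smarcd2 the part of the larger share of peaks on chromosome 11 was not tested.

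Over each gene and 10 kb on either side, 66 peak regions were merged from the 6 libraries, a comparison added after the data had been seen. Of these, 41 had a peak in all 6 libraries, while over the genome 54.7% of regions did. Peaks in both WT and no mutant library were seen in 2 of the 66, beside 3.25% of all regions, and the reverse in 0, beside 0.733%. They lay at chr15:99705036-99705234, 2206 bp after the nearest Smarcd1 start, and at chr3:32700671-32700823, at -5551 bp from the nearest Actl6a start. Arid1b, the longest of the genes at 353 kb, held 22 regions, of which the WT libraries had 20 and 14, those of Mut18 16 and 17, and those of Mut43 15 each. Its WT libraries differed from each other more than the mutant libraries did, and 0 regions separated the lines.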

How the data were processed

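The authors deposited 1 table of read counts per gene, not normalised, for 6 mRNA-seq libraries, and 1 peak list per ATAC-seq library where each peak has a fold enrichment (a ratio over the caller's background) and p and q values as -log10. Replicates were not pooled, and the reference was mm10, the build of GRCm38, joined to the fly genome. The submitters' processing notes name STAR, Bowtie2 2.3.4.2, SAMtools, MACS2, DESeq2 and deepTools 3.3.0. The counting program, its annotation and its use of strand are not given in the sources used here, nor is the handling of the transposase offset in ATAC-seq, and the peak lists carry no depth. Peaks were compared only by overlap and by rank within a list.

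edgeR 4.0.16 was run in R 4.3.3. Its expression filter kept genes (minimum count 10, minimum total 15), which were scaled by TMM and tested by the quasi-likelihood F-test, 2 WT against 4 mutant libraries, with Benjamini-Hochberg adjustment over 14061 genes. Clones were tested in a fit with 3 groups on the same WT libraries. A normalised count is a count divided by the TMM-scaled library size relative to the mean library. Intervals are at 95%. The procedure was tested on simulated data. Per gene, the chi-square between replicates was 3.06 in WT, 2.07 in Mut18 and 1.81 in Mut43, which is above counting error and highest in WT. The paper calls them biological duplicates, each line is 1 line or clone, and p-values cover the spread between these libraries only.

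Symbols were placed on GENCODE vM21, 15618 directly and 474 by a RefSeq synonym, and 171 were left without a place. Levels used the union of exons. All members were named. From the other lists, paralogues of members, subunits of other assemblies and the 3 largest called changes in each direction were named. Actb, Ss18, Bcl7a, Bcl7b, Bcl7c, Ss18l1, Gltscr1l, Col3a1, Fbn1, Thy1, Twist2 and the neighbouring genes were named after their values were seen. The members and lists were chosen with earlier results of these data known. Alternatives were DESeq2 1.42.0, other scalings and filters, a replicate block, single libraries left out, other lengths, windows and peak thresholds. The remaining steps ran in Python 3.11.15 (scipy 1.17.1, numpy 2.4.6, pandas 2.3.3). ChIP-seq of the series was not used here.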

Additional observations from a re-analysis of the deposited data

Results flagged for a closer look

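Among 55 sets of 4 mutant libraries examined for a library far from the others, 3 stood out, and chance gives about 1 in 20. In Smarca4, Mut43 replicate 2 (4691 normalised counts) was apart from the other 3 (4610 to 4616), with a gap of 0.928 of the whole range, although that range was narrow. In Atrx, Mut18 replicate 1 (5415) was apart from 6206 to 6268, also with a gap of 0.928 of the range. In Hltf, Mut18 replicate 1 (1288) was apart from 1405 to 1423, with a gap of 0.870 of the range. No difference between the clones was called for any gene of the 3 lists.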

How the results depend on the processing

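The members' counts of 3 higher and 3 lower genes kept within 1.5-fold under DESeq2, RLE scaling, no expression filter, scaling outside chromosome 11 and library totals, and in fits without single libraries they ranged from 2 to 3 in each direction. With the 2-fold threshold both became 0. In Mut18 the higher genes ranged from 1 to 2 and the lower from 2 to 3, and in Mut43 both from 2 to 3, without single libraries. Scaling on chromosome 11 gave -0.040 for Smarcd2 and -0.21 for Smarce1, the opposite sign to the main values, which follows from lowering all genes alike and restates that both lie under the median of the chromosome. Of the other ATPases, the lower genes numbered 3 under DESeq2 and 2 to 6 without single libraries, and the cause was not tested. With the longest transcript 4 of 10 members kept their rank. At a -log10 q of at least 20, 5 of 10 kept a promoter peak in all libraries, with no share over all genes beside it. Replicate numbers did not pair the libraries (correlations of -0.12, 0.08 and -0.06). With the replicate block the members' counts were 3 and 3 between the mutants and WT and 3 and 2 in Mut43, where Smarcd1 was lost (adjusted p = 0.0635), and no other call of a member changed. With 2 WT libraries, each WT level rests on few cultures, and leaving 1 out assumes that the other varies like the mutant lines.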
